A study of Mus musculus with 7 samples.

Results

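Neutrophils and mast cells were followed in whole mouse ovaries through 10 genes of bulk RNA sequencing, chosen by symbol as genes that these cells are known for. The neutrophil genes were S100a8, S100a9, Retnlg, Csf3r and Cxcr2, and the mast cell genes were Cpa3, Mcpt4, Tpsb2, Cma1 and Fcer1a. All 10 were found among the 34866 genes of the deposited table, 1 row each, and each set of 5 was kept apart from the other. The 7 libraries came from ovaries of female mice aged 8 to 12 weeks, each ovary homogenised by itself. The wild type group held 2 libraries of fertile wild type mice fed the CD diet. The CD knockout group held 3 libraries of infertile Abcg5/g8 KO mice fed the same diet. The VOFD knockout group held 2 libraries of fertile Abcg5/g8 KO mice fed the VOFD diet, so infertility went with 1 group and fertility with the other 4 libraries. The sources used here name neither the strain, nor how the knockout was made, nor the diets beyond these letters. Abcg5 and Abcg8, which encode a sterol transporter pair, summed to between 0.0822 and 0.284 TPM in every library, so they could not be used to check the genotype labels.

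Neutrophils are short-lived granulocytes that leave the blood for inflamed tissue and also enter the ovary around ovulation. Their cytosol is rich in the calcium-binding pair S100A8 and S100A9, known together as calprotectin, and they sense granulocyte colony-stimulating factor through CSF3R and chemokines through CXCR2. Mast cells are long-lived tissue cells that carry granules of proteases and respond to IgE through the receptor FcεRI, whose alpha chain is encoded by Fcer1a. Tpsb2 encodes a tryptase, Cma1 and Mcpt4 encode chymases and Cpa3 encodes a carboxypeptidase, all stored in those granules.

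The values were TPM, a length-scaled share of all transcripts that sums to 1000000 in each library, so levels can be compared between genes but keep no sequencing depth. A level of 1 TPM was reached by 14267 to 14982 genes per library, and mitochondrially encoded transcripts made up 11.7% of TPM in CD knockout library 3, 15.4% in library 2 and between 16.7% and 18.3% in the other 5. Library 3 of that group also had the fewest genes above 0, at 19208 against 20476 to 21392. Ovary genes were present in every library, with Zp3 of the egg coat between 48.2 and 133 TPM and the follicle-stimulating hormone receptor gene Fshr between 7.47 and 25.0 TPM. The CD knockout libraries also differed from each other in genes of other tissues. Ovgp1, an oviduct gene, was at 352 TPM in CD knockout library 3 and at 37.4 TPM or less in the other 6. Cyp17a1, a theca cell enzyme gene, was at 3.53 TPM in CD knockout library 1. In whole tissue, fewer cells of a type and less RNA per cell cannot be told apart.

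The stretches of 250 bases before the start of 4 of these genes are shown because they are where the regulators of each lineage would be looked for, in a pair of genes for each cell type. They are from RefSeq on GRCm38.p6, 5′ to 3′ on the strand of the gene, for S100a9 (chr3:90695722-90695971, minus strand), Retnlg (chr16:48872358-48872607, plus strand, before a start that differs from the GENCODE one), Cpa3 (chr3:20242182-20242431, minus strand) and Mcpt4 (chr14:56062311-56062560, minus strand). Capitals mark the letters TTGCNNAA of the C/EBP family and AGATAA or TGATAA of the GATA family, on either strand. C/EBP factors are known regulators of granulocyte genes, and GATA factors of mast cell genes. All 4 stretches shown held the letters marked for their own lineage, which those of S100a8, Csf3r, Cxcr2 and Cma1 did not.
S100a9: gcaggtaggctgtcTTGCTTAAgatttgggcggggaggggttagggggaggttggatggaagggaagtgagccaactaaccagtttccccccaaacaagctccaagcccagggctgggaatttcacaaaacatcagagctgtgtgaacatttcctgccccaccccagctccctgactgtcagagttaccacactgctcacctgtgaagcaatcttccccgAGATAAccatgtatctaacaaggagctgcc
Retnlg: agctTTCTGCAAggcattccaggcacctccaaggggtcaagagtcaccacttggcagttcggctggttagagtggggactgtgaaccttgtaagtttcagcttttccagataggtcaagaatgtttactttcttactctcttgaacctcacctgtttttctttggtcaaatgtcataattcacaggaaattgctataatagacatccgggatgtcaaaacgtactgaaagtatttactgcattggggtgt
Cpa3: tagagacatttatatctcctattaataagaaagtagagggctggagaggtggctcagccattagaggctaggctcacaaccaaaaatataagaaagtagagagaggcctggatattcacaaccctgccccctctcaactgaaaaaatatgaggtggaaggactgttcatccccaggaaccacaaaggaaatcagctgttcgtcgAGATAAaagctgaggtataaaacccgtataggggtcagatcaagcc
Mcpt4: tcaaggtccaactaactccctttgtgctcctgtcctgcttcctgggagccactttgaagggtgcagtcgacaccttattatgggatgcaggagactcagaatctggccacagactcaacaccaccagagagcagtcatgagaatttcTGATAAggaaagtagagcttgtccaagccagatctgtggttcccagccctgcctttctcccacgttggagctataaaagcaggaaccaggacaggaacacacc
The letters of C/EBP stood in the S100a9 and Retnlg stretches and in that of Fcer1a, 3 of the 9 genes with a promoter in the table, and in 9.56% of all 32851 promoters. Those of GATA stood in S100a9, Cpa3, Mcpt4 and Fcer1a, 4 of 9, and in 16.6% of all promoters. The letters GAGGAA, bound by the myeloid factor PU.1, stood in S100a8, Csf3r, Cxcr2 and Fcer1a, 4 of 9, against 23.3% of all promoters. S100a8 held them at 2 places, in a window that lay in part over the first exon of the GENCODE model. The Csf3r window also reached past the GENCODE start of its gene, and its match lay past that start. The Cma1 stretch held none of these letters. Each GATA match of Cpa3 and Mcpt4 lay within the last 103 bases before the start. These matches describe letters and not binding.

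Among the neutrophil genes, S100a8 and S100a9 held most of the signal and were far apart between the 3 CD knockout libraries. S100a8 (ENSMUSG00000056054.9, GRCm38 chromosome 3, 90668978 to 90670035, plus strand) was at 3.15 and 6.04 TPM in wild type, at 4.07, 62.4 and 30.7 TPM in CD knockout libraries 1, 2 and 3, and at 3.40 and 7.30 TPM in VOFD knockout. S100a9, its neighbour on chromosome 3 (ENSMUSG00000056071.12, 90692632 to 90695721, minus strand), was at 6.13 and 3.39 TPM in wild type, at 4.57, 65.8 and 40.3 TPM in CD knockout, and at 2.66 and 7.60 TPM in VOFD knockout. Both genes were thus high in CD knockout libraries 2 and 3, while library 1 lay among the fertile libraries, and the groups overlapped. The mean of S100a8 was 32.4 ± 29.2 TPM (SD, n = 3) in CD knockout, 4.60 ± 2.05 TPM (n = 2) in wild type and 5.35 ± 2.76 TPM (n = 2) in VOFD knockout. The log2 fold change of S100a8 in CD knockout against wild type was 2.00 (SE 0.90, limma BH adjusted p = 0.491), and that of S100a9 was 2.15 (SE 0.92, limma BH adjusted p = 0.480). Fold changes here are on the scale of log2(TPM + 1), which understates those of low genes, and a gene was called at an adjusted p under 0.05 over the 15487 genes tested.

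The spread inside the CD knockout group was larger for these 2 genes than for nearly all others. From lowest to highest CD knockout library S100a8 spanned 3.64 on the log2(TPM + 1) scale, a range that 0.42% of tested genes exceeded. S100a9 spanned 3.58, exceeded by 0.458% of tested genes. The level of S100a8 over that of S100a9 stayed between 0.762 and 0.948 in the CD knockout libraries, and it was between 0.513 and 1.78 in the 4 fertile ones. Together they made up at least 81.7% of the summed TPM of the 5 neutrophil genes in every library.

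Retnlg, a resistin-like gene of neutrophils (ENSMUSG00000022651.5, chromosome 16, 48872621 to 48874496, plus strand), was at 0.549 and 0 TPM in wild type, at 0.906, 3.61 and 2.19 TPM in CD knockout, and at 0.185 and 0 TPM in VOFD knockout. Every CD knockout library lay above every fertile one, as in 11.2% of all genes tested, and library 2 was again the highest. The log2 fold change against wild type was 1.29 (SE 0.41, unadjusted p = 0.0125, limma BH adjusted p = 0.369). The gene passed the filter on low values, 1 TPM in at least 2 libraries, only through CD knockout libraries 2 and 3.

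The 2 receptor genes were low throughout. Csf3r (ENSMUSG00000028859.14, chromosome 4, 126024550 to 126044440, plus strand) was at 0.657 and 0.728 TPM in wild type, at 0.646, 2.37 and 1.77 TPM in CD knockout, and at 0.669 and 1.06 TPM in VOFD knockout. As for the S100 pair, libraries 2 and 3 were high and library 1 was not (log2 fold change against wild type 0.56, SE 0.35, limma BH adjusted p = 0.548). Cxcr2 (ENSMUSG00000026180.8, chromosome 1, 74153989 to 74161246, plus strand) was between 0.321 and 0.326 TPM in wild type, at 0.389, 0.696 and 0.419 TPM in CD knockout, and at 0.476 and 0.435 TPM in VOFD knockout. Cxcr2 never reached 1 TPM and was not tested. Its CD knockout libraries lay above wild type but overlapped VOFD knockout.

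**Figure D1:**
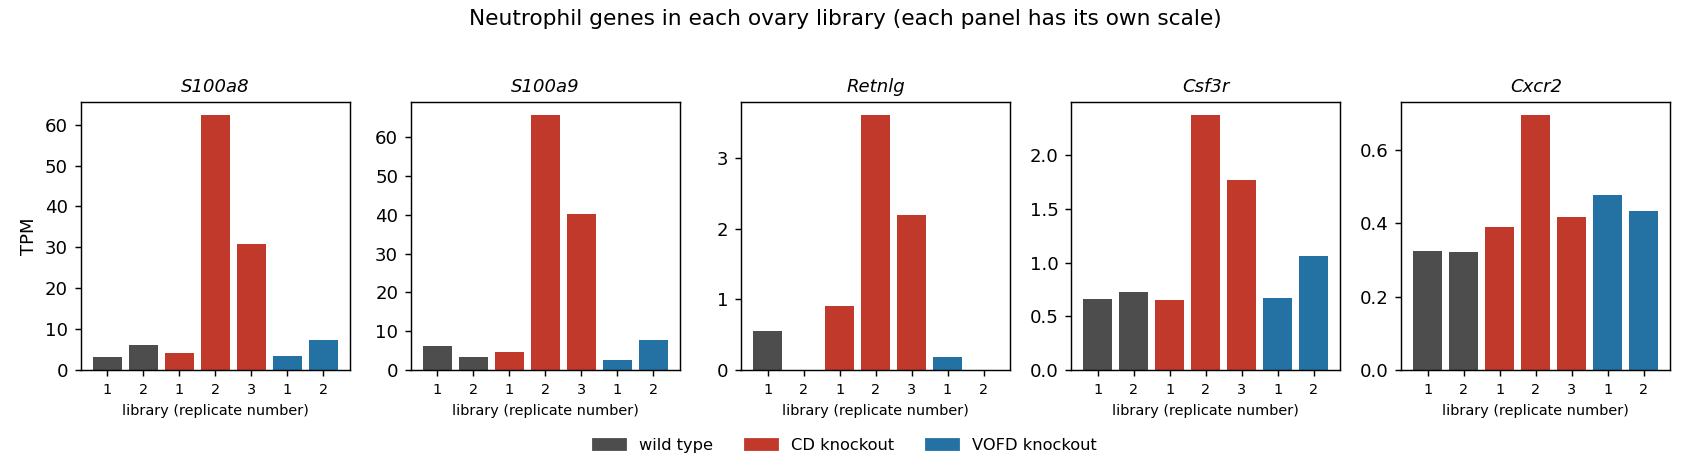
Level of the 5 neutrophil genes in TPM (vertical axes, each panel with its own linear scale from 0) in each of the 7 libraries, with 1 bar per library coloured by group. S100a8 and S100a9 stand at 30.7 TPM or more in CD knockout libraries 2 and 3 and at 7.60 TPM or less in the other 5 libraries.

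The mast cell genes had another order of libraries inside the CD knockout group, with library 1 high and library 3 near the fertile level. Tpsb2 (ENSMUSG00000033825.9, chromosome 17, 25366305 to 25369098, plus strand) was at 6.39 and 4.72 TPM in wild type, at 12.4, 19.1 and 6.96 TPM in CD knockout libraries 1, 2 and 3, and at 4.29 and 4.05 TPM in VOFD knockout. Cpa3 (ENSMUSG00000001865.2, chromosome 3, 20215620 to 20242181, minus strand) was at 3.43 and 2.96 TPM in wild type, at 6.37, 11.4 and 3.76 TPM in CD knockout, and at 1.65 and 2.68 TPM in VOFD knockout. For both genes every CD knockout library lay above every fertile one, as in 11.2% of all genes tested. Library 3 did so by a factor of only 1.09 over the highest of them. The mean of Tpsb2 was 12.8 ± 6.08 TPM (SD, n = 3) in CD knockout against 5.56 ± 1.18 TPM (n = 2) in wild type, at a log2 fold change of 0.99 (unadjusted p = 0.0252, limma BH adjusted p = 0.429). That of Cpa3 was 7.17 ± 3.87 TPM against 3.20 ± 0.337 TPM, at 0.85 on the log2 scale (SE 0.39, limma BH adjusted p = 0.493).

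The chymase genes lie on chromosome 14. Mcpt4 (ENSMUSG00000061068.7, 56059629 to 56062313, minus strand) was at 1.56 and 1.31 TPM in wild type, at 4.19, 5.64 and 1.39 TPM in CD knockout, and at 1.80 and 0.680 TPM in VOFD knockout. Cma1 (ENSMUSG00000022225.7, 55941451 to 55944675, minus strand) was at 6.51 and 5.70 TPM in wild type, at 6.95, 13.9 and 3.30 TPM in CD knockout, and at 3.90 and 2.98 TPM in VOFD knockout. Both genes were within the fertile range in library 3, so the groups overlapped. The log2 fold change against wild type was 0.84 for Mcpt4 (SE 0.44, limma BH adjusted p = 0.523) and 0.17 for Cma1 (SE 0.45, adjusted p = 0.875). The sign for Cma1 turned to -0.016 under quantile normalisation and to -0.28 without CD knockout library 2. The IgE receptor gene Fcer1a (ENSMUSG00000005339.10, chromosome 1, 173221284 to 173227214, minus strand) was at 1.44 and 0.746 TPM in wild type, at 2.26, 3.14 and 0.452 TPM in CD knockout, and at 1.02 and 0.861 TPM in VOFD knockout. Library 3 held the lowest Fcer1a level of all 7 (log2 fold change against wild type 0.39, SE 0.44, limma BH adjusted p = 0.705). Since the counting of reads is not described, reads shared with close copies, such as Tpsab1 for Tpsb2, other Mcpt genes for Mcpt4 and Cma2 for Cma1, make these levels uncertain.

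**Figure D2:**
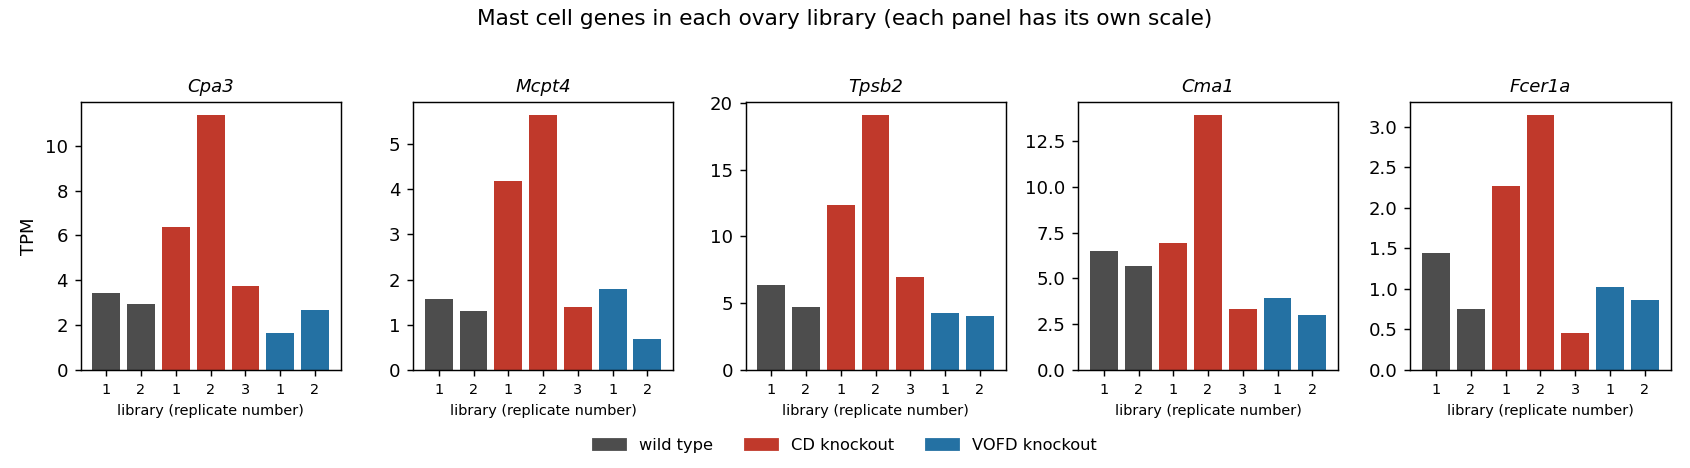
Level of the 5 mast cell genes in TPM (vertical axes, each panel with its own linear scale from 0) in each of the 7 libraries, with 1 bar per library coloured by group. CD knockout library 2 is the highest in every panel, library 1 is second in every panel, and library 3 is the lowest of the 3.

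The order of the mast cell genes by level also differed between libraries. In both wild type libraries Cma1 was first, followed by Tpsb2, Cpa3, Mcpt4 and Fcer1a. In all 5 knockout libraries Tpsb2 was first. Cma1 made up 33.6% and 36.9% of the summed TPM of the 5 genes in wild type, 21.6%, 26.2% and 20.8% in CD knockout, and 30.8% and 26.5% in VOFD knockout. Its share was thus lower in every knockout library than in both wild type ones, while VOFD knockout library 2 lay next to CD knockout library 2. The share of Tpsb2 lay between 30.6% and 43.9% over the 7 libraries, with the highest in CD knockout library 3.

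Summed over each set, the 2 sums parted in the CD knockout libraries, and S100a8 and S100a9 held most of the neutrophil sum in every library. The 5 neutrophil genes summed to 10.8 and 10.5 TPM in wild type, to 10.6, 135 and 75.4 TPM in CD knockout libraries 1, 2 and 3, and to 7.39 and 16.4 TPM in VOFD knockout. The 5 mast cell genes summed to 19.3 and 15.4 TPM in wild type, to 32.2, 53.2 and 15.9 TPM in CD knockout, and to 12.7 and 11.2 TPM in VOFD knockout. Library 2 was high in both sums, library 1 in the mast cell sum alone and library 3 in the neutrophil sum alone. The neutrophil sum over the mast cell sum was 0.329, 2.54 and 4.75 in CD knockout, and between 0.559 and 1.46 in the fertile libraries. Above the highest fertile library stood 1, 5 and 4 of the 5 neutrophil genes in CD knockout libraries 1, 2 and 3, and 5, 5 and 2 of the 5 mast cell genes. Over all tested genes the shares above the highest fertile library were 31.2%, 34.8% and 57.8% in the same libraries.

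Of the 9 genes tested, none was called in CD knockout against wild type, where limma called 17 of 15487 genes, 0.11% of them. All 4 tested neutrophil genes and all 5 mast cell genes had a positive log2 fold change, beside 72.3% of all genes tested. The median was 1.65 for the neutrophil genes and 0.84 for the mast cell genes, beside 0.19 for all genes. At an unadjusted p under 0.05 stood S100a9, Retnlg and Tpsb2, and 10.3% of all genes tested. Retnlg passed the filter on low values only through libraries of the CD knockout, and Csf3r through 2 of them and 1 of the VOFD knockout, so these counts and medians are a description. Scaling by the median of ratios moved the median of all genes from 0.19 to 0.0034, at which Cma1 stood at 0.00027. Every CD knockout library lay above every wild type library in 3 of the 9 tested genes, Retnlg, Cpa3 and Tpsb2, and in 20.6% of all genes tested.

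In VOFD knockout against CD knockout, which uses the same CD knockout libraries, mice of 1 genotype were compared between the diets. All 9 tested genes had a negative log2 fold change, beside a share of 36.7% of all genes with a positive one, and none was called, where limma called 0.0452% of genes. The values were -1.84 for S100a8, -2.15 for S100a9, -1.48 for Retnlg and -0.42 for Csf3r, with limma BH adjusted p between 0.448 and 0.751. Among the mast cell genes they were -1.32 for Tpsb2 (limma BH adjusted p = 0.450), -1.28 for Cpa3 (0.485), -1.01 for Mcpt4, -0.85 for Cma1 and -0.47 for Fcer1a. At an unadjusted p under 0.05 stood S100a9, Retnlg, Cpa3 and Tpsb2, and 7.94% of all genes tested. The same 3 genes, Retnlg, Cpa3 and Tpsb2, had every CD knockout library above every VOFD knockout library, as had 17.9% of all genes tested. Here too Retnlg had passed the filter on low values only through CD knockout libraries 2 and 3, so the counts are a description.

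VOFD knockout and wild type ovaries, both fertile, lay close in the neutrophil genes. The log2 fold change of VOFD knockout against wild type was 0.16 for S100a8 (95% interval -2.08 to 2.41), 0.0038 for S100a9, -0.19 for Retnlg and 0.13 for Csf3r. That of S100a9 turned to -0.079 under median-of-ratios scaling and to -0.12 under quantile normalisation. The 5 mast cell genes were all below 0, from -0.09 for Fcer1a to -0.68 for Cma1, with a median of -0.33 beside 0.08 for all genes. None was called and every limma BH adjusted p was 1, with 0.0129% of all genes called. At an unadjusted p under 0.05 stood none of the 9 and 1.99% of all genes tested.

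Infertile against fertile set the 3 CD knockout libraries against the other 4 together. The log2 fold changes were 1.92 for S100a8 (limma BH adjusted p = 0.262), 2.15 for S100a9 (0.245), 1.38 for Retnlg (0.131) and 0.49 for Csf3r (0.405). For the mast cell genes they were 1.15 for Tpsb2 (limma BH adjusted p = 0.159), 1.07 for Cpa3 (0.207), 0.92 for Mcpt4 (0.272), 0.51 for Cma1 (0.523) and 0.43 for Fcer1a (0.543). None of the 9 was called, where limma called 0.245% of all genes. At an unadjusted p under 0.05 stood 3 neutrophil genes and 3 mast cell genes, and 15.4% of all genes tested. The 3 genes without overlap, Retnlg, Cpa3 and Tpsb2, stood beside 11.2% of all tested genes in which every CD knockout library lay above every fertile one. These counts take in Retnlg, which passed the filter on low values only through CD knockout libraries 2 and 3, so they are a description.

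**Figure D3:**
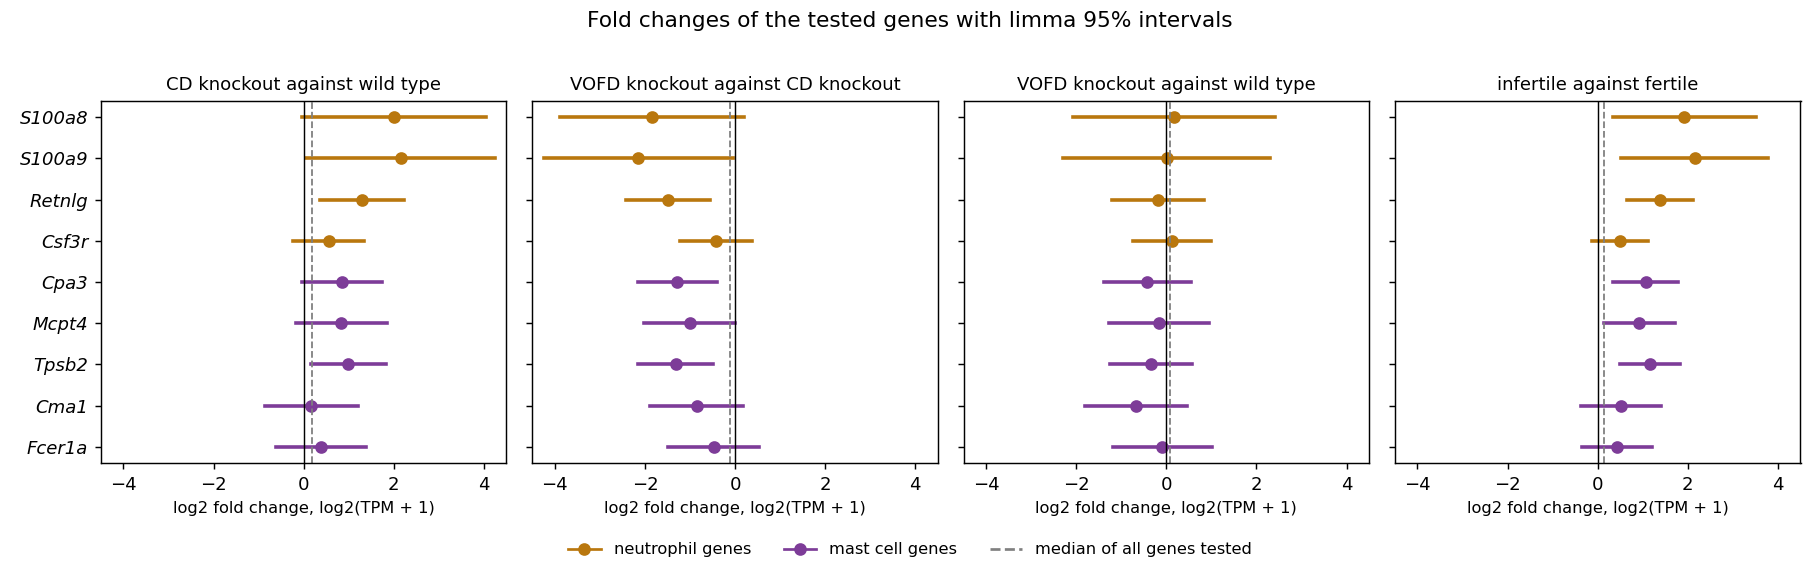
Log2 fold change (horizontal axes, log2(TPM + 1) scale) of the 9 tested genes in the 4 comparisons, with points for limma estimates, bars for 95% intervals, orange for neutrophil and purple for mast cell genes, and a dashed line at the median of all genes tested. All 9 points are above 0 in CD knockout against wild type and below 0 in VOFD knockout against CD knockout, and the S100a8 and S100a9 bars are the widest.

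The calls of the neutrophil genes depended on CD knockout library 1. Without it the log2 fold change against wild type was 3.05 for S100a8 (limma BH adjusted p = 0.0248) and 3.23 for S100a9 (0.0212), and both were called. Against VOFD knockout they were called too without it, at -2.89 (limma BH adjusted p = 0.0351) and -3.23 (0.0244) for VOFD knockout over CD knockout. Infertile against fertile then called S100a8 (2.97, limma BH adjusted p = 0.00588), S100a9 (3.23, 0.00407) and Retnlg (1.72, 0.0191). Retnlg passed the filter on low values only through the 2 CD knockout libraries that were kept. The same omission raised the calls over all genes from 17 to 174, from 7 to 104 and from 38 to 665. The genes tested numbered 15487 with library 1 and 15328 without it. Without CD knockout library 2, S100a8 was at 1.23 and S100a9 at 1.44 against wild type, and without library 3 the mast cell genes Cpa3, Mcpt4 and Tpsb2 were at 1.19, 1.27 and 1.33. No mast cell gene was called with any library left out.

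Other genes of neutrophil granules and surfaces differed in which libraries were high. Of 19 listed, 10 were tested, 9 had a positive log2 fold change in CD knockout against wild type and none was called, with a median of 0.39, beside 72.3% positive, a median of 0.19 and 0.11% called over all genes tested. Camp, the cathelicidin of secondary granules, was at 0.0993 and 0.134 TPM in wild type, at 3.09, 4.95 and 0.644 TPM in CD knockout, and at 0.134 and 0.124 TPM in VOFD knockout. Ngp, another granule protein gene, was at 0 in wild type, at 0.351, 5.91 and 1.06 TPM in CD knockout, and at 0 and 0.0669 TPM in VOFD knockout. Both were above every fertile library in all 3 CD knockout libraries, as were 11.2% of all genes tested, and both passed the filter on low values only through 2 CD knockout libraries. Camp was higher in library 1 than in library 3, unlike S100a8 (log2 fold change of Camp against wild type 1.61, limma BH adjusted p = 0.350, and of Ngp 1.42, 0.480). Ltf, which encodes lactoferrin and is also made by epithelia of the reproductive tract, was at 2.32, 1.57 and 32.9 TPM in CD knockout, highest in the library with high Ovgp1. The genes that follow were chosen after their values were seen. The neutrophil surface gene Ly6g was at 0.140, 0.394 and 0.486 TPM in CD knockout libraries 1, 2 and 3. In wild type it was at 0, and in VOFD knockout at 0 and 0.186 TPM. Ly6g, Stfa2l1, Trem1 and Clec4e were above every fertile library in libraries 2 and 3 alone. Mmp8 was so in all 3, beside 11.2% of all genes tested, Padi4 in library 3 alone, Elane in library 2 alone and Fpr1 in none. The granule enzyme gene Mpo of immature neutrophils was between 0.164 and 0.520 TPM, highest in library 2. None of these genes passed the filter on low values, so none was tested. Lcn2, a granule gene that epithelia also make, was at 27.7 and 9.55 TPM in wild type, at 12.7, 10.9 and 5.80 TPM in CD knockout, and at 4.06 and 15.6 TPM in VOFD knockout, with a negative log2 fold change against wild type (-0.75, limma BH adjusted p = 0.597). Cd177, a neutrophil surface gene, and Il1r2, a decoy receptor gene, had values of 0.18 and 0.17, and their groups overlapped. Lcn2, Cd177 and Il1r2 were likewise chosen after their values were seen.

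Of 19 genes of neutrophil recruitment and growth 12 were tested, 9 had a positive log2 fold change in CD knockout against wild type and none was called, with a median of 0.22, close to the 72.3% positive and the median of 0.19 of all genes tested, of which 0.11% were called. Cxcr4, the chemokine receptor gene that many leukocytes share, was at 3.68 and 3.62 TPM in wild type, at 11.8, 7.29 and 11.2 TPM in CD knockout, and at 7.33 and 5.45 TPM in VOFD knockout (log2 fold change against wild type 1.23, SE 0.26, limma BH adjusted p = 0.207). CD knockout library 2 overlapped VOFD knockout there. Cxcl1, a ligand gene for CXCR2 named here after its values were seen, was at 4.90 and 4.08 TPM in wild type, at 2.11, 15.2 and 20.5 TPM in CD knockout, and at 5.97 and 9.25 TPM in VOFD knockout. As for S100a8, libraries 2 and 3 were high, and library 1 was the lowest of all 7. Cxcl1 was not called, at a log2 fold change against wild type of 0.91 (SE 0.71, limma BH adjusted p = 0.598). For VOFD knockout against CD knockout it was at -0.28 (limma BH adjusted p = 0.923). For the other CXCR2 ligand genes of the list, libraries 2 and 3 did not both lie above the fertile range. Cxcl5 had a mean of 0.985 ± 0.484 TPM (SD, n = 3) in CD knockout and 0.912 ± 0.2996 TPM (n = 4) in the fertile libraries, with overlap, and Cxcl2 and Cxcl3 stayed at 0.419 TPM or less in every library and were not tested.

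Of 19 other mast cell genes 9 were tested, 8 had a positive log2 fold change in CD knockout against wild type and none was called, with a median of 0.56, beside 72.3% positive, a median of 0.19 and 0.11% called over all genes tested. Ms4a2, the beta chain of FcεRI, was between 0.0825 and 0.753 TPM, highest in CD knockout library 2 and lowest in library 3. In CD knockout libraries 1, 2 and 3 Tpsab1 was at 0.295, 0.541 and 0.105 TPM and Adora3 at 0.769, 0.878 and 0.333 TPM. These had the order of the mast cell proteases, and the low genes Mcpt2, Tpsg1, Mrgprb1, Mrgprb2 and Ctsg did not. More abundant genes of the list had another order. Hdc, the histamine-forming enzyme gene, was at 17.3, 9.83 and 36.4 TPM in CD knockout, beside a mean of 11.0 ± 1.64 TPM (SD, n = 4) in the fertile libraries. Slc18a2, a monoamine transporter gene, was at 37.7, 80.9 and 113 TPM in CD knockout and between 27.0 and 62.3 TPM in the fertile libraries, so that both were highest in library 3. How much of the Hdc and Slc18a2 levels came from mast cells was not tested. Slc18a2 and the low genes from Ms4a2 to Ctsg were named after their values were seen. Fcer1g, the gamma chain shared with other immune receptors, was at 26.7 and 30.8 TPM in wild type, at 39.7, 42.0 and 48.6 TPM in CD knockout, and at 29.5 and 26.7 TPM in VOFD knockout. Every CD knockout library lay above every fertile one, as in 11.2% of all genes tested, while wild type and VOFD knockout overlapped (log2 fold change of CD knockout against wild type 0.58, SE 0.18, limma BH adjusted p = 0.352). Kit, the receptor gene of mast cells that oocytes also express, was at 9.06 and 11.6 TPM in wild type, at 11.0, 26.8 and 29.1 TPM in CD knockout, and at 15.0 and 13.9 TPM in VOFD knockout, in another order than the mast cell proteases. Of 11 mast cell growth factor and cytokine genes 8 were tested and none was called in CD knockout against wild type. There 6 had a positive log2 fold change and 2 a negative one, with a median of 0.44. The values over all genes tested were 72.3% positive, a median of 0.19 and 0.11% called. Kitl, the ligand gene for KIT and in the ovary a product of granulosa cells, was at 27.0 and 34.3 TPM in wild type, at 57.1, 54.1 and 79.4 TPM in CD knockout, and at 37.1 and 44.3 TPM in VOFD knockout (log2 fold change against wild type 1.02, SE 0.22, limma BH adjusted p = 0.214).

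Sums over marker genes of other cell types were set beside both sets. The 12 monocyte and macrophage genes summed to between 486 and 646 TPM in the fertile libraries and to 554, 702 and 810 TPM in CD knockout libraries 1, 2 and 3. The 9 lymphocyte genes summed to between 6.53 and 8.11 TPM in the fertile libraries and to 6.38, 11.7 and 16.1 TPM in CD knockout. Both sums were thus above the fertile range in libraries 2 and 3 and not in library 1, as S100a8 and S100a9 were. Lyz2, named after its values were seen, held the most TPM of the monocyte and macrophage list. It was at 242, 391 and 365 TPM in CD knockout and between 246 and 350 TPM in the fertile libraries. Cd68 was above every fertile library in all 3, at 24.1, 23.9 and 26.6 TPM, as were 11.2% of all genes tested. Csf1r was so only in libraries 2 and 3, at 9.55, 13.5 and 24.5 TPM in libraries 1, 2 and 3. The 6 erythroid genes summed to between 440 and 836 TPM in the fertile libraries and to 2209, 3050 and 1267 TPM in CD knockout, and the 11 adipose tissue genes to between 257 and 1185 TPM and to 2957, 2030 and 1251 TPM. Libraries 1 and 2 were the highest in both, as they were in the mast cell genes, and the globin gene Hba-a1 rose in infertile against fertile (log2 fold change 1.71, limma BH adjusted p = 0.0435). The 8 basophil and eosinophil genes summed to between 0.779 and 1.13 TPM in the fertile libraries and to 0.935, 2.72 and 1.91 TPM in CD knockout, and the 11 ovary genes to between 2142 and 2547 TPM and to 1804, 4008 and 4399 TPM. Both were above the fertile range in libraries 2 and 3 alone, as S100a8 and S100a9 were, and the mitochondrial share was lowest in the same libraries. Single genes carried much of both sums. Prg2 was at 0.245, 1.38 and 1.13 TPM in CD knockout. The other 7 genes of its list stayed under 1 TPM in every library. Inha was named after its values were seen. It was at 879, 3046 and 3410 TPM in CD knockout and between 1025 and 1530 TPM in the fertile libraries. Of the 11 ovary genes 8 had a negative log2 fold change in CD knockout against wild type, beside 72.3% positive over all genes tested. Mcpt8, a basophil protease gene, was at 0 in all libraries. The part of blood, fat, oviduct, other leukocytes, ovary makeup or mitochondrial share in the neutrophil and mast cell values was not tested.

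**Figure D4:**
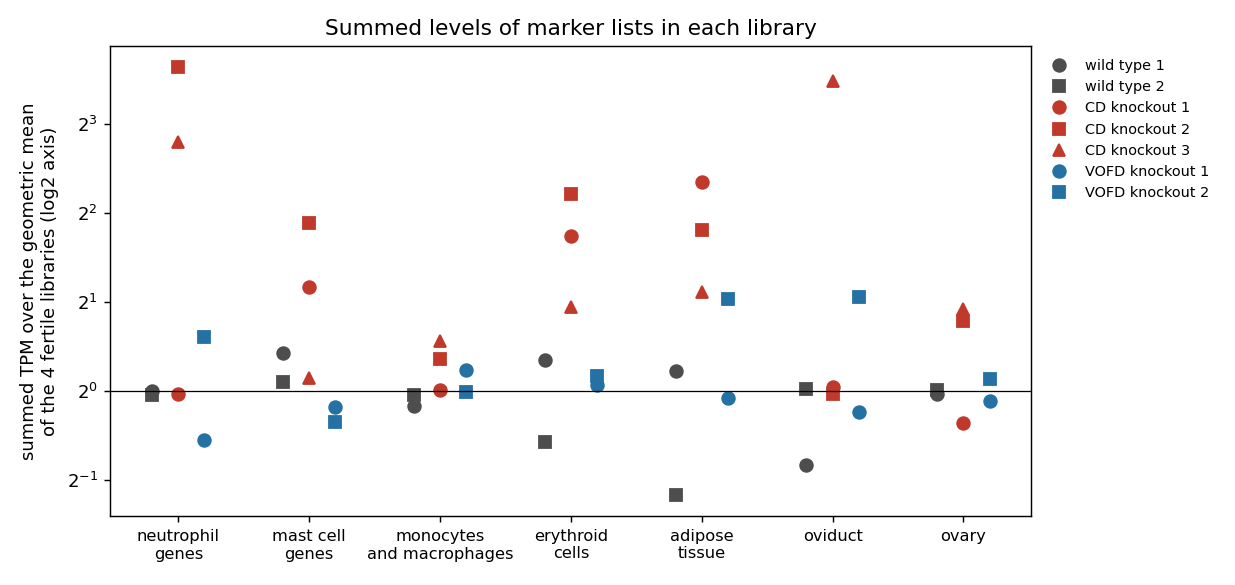
Summed TPM of each marker list divided by the geometric mean of the 4 fertile libraries (log2 axis), with colours for groups and circle, square and triangle for replicates 1, 2 and 3. The neutrophil sum is high in CD knockout libraries 2 and 3 alone, the mast cell sum in libraries 1 and 2, and the erythroid and adipose sums lie above the fertile libraries in all 3.

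The genes whose pattern over the 7 libraries lay closest to the mean of the tested neutrophil genes were Pla2g1b, Gdnf, Large2, Fetub and Inhbb, among 13420 protein coding genes compared. Likeness was the root mean square difference of profiles centred on their mean on the log2(TPM + 1) scale, 0.249 for Pla2g1b and 0.367 for Inhbb. Each neutrophil gene against the mean of the other tested ones gave between 0.567 and 0.836. Inhbb, which encodes a subunit of inhibin B and activin B, was at 67.7, 406 and 441 TPM in CD knockout and between 61.0 and 126 TPM in the fertile libraries. The closest genes to the mast cell mean were Speer4e, Hhipl2, Wfdc17, Kif5c and Apold1, from 0.163 to 0.256, and the mast cell genes against each other gave between 0.221 and 0.293. The differences were thus smaller among the mast cell genes, which is a description over 7 libraries of 3 groups. This measure takes in the size of changes as well as their order. Over the 7 libraries S100a9 spanned 4.19 and Csf3r 1.035 on the log2(TPM + 1) scale, and the mast cell genes between 1.51 and 2.22. It therefore cannot tell which set agreed better in the order of libraries.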

How the data were processed

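RNA of 7 ovary libraries in 3 groups, assigned by their titles, was analysed from TPM values deposited by the authors for 34866 genes. GRCm38 is the build named, per the submitters' processing notes, with the aligner, counter, annotation release and strand setting not given in the sources used here. The TPM of a library summed to 1000000, so depth is unknown and no counting interval was computed. Symbols were matched for 34582 versioned Ensembl IDs and not for 284. Coordinates are those of GENCODE M21 (GRCm38), and promoters those of RefSeq (GRCm38.p6), which held 9 of the 10 genes.

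Tests used log2(TPM + 1) of the 15487 genes with at least 1 TPM in at least 2 libraries. Linear models came from limma 3.58.1 in R 4.3.3 (with data.table, version 1.17.8), with an intensity trend in the variance prior, 2-sided tests and Benjamini-Hochberg (BH) adjustment over all genes tested, at a threshold of 0.05. The main fit held all 7 libraries and 3 group means, which left 4 residual degrees of freedom, and infertile against fertile had 2 means, which left 5. The fit was tested on simulated data. Nothing says that each library is another animal, so the p-values here measure only sample spread, which may be technical.

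The 10 genes and all lists were chosen with earlier results of these data known. Beyond them, up to 3 genes of a list with the smallest p in a comparison, any called gene of a list, and the 5 genes of most like pattern per cell type were named, and others are said to be chosen after their values were seen. Ovary, oviduct and theca genes given as a check of the tissue were also chosen so. Alternatives were another pseudocount (0.1 TPM), no filter, median-of-ratios scaling, quantile normalisation, no trend, a replicate block, only the groups compared, and each library left out.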

Additional observations from a re-analysis of the deposited data

How the results depend on the processing

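Depth is unknown, so what low genes such as Retnlg, Csf3r and Cxcr2 can resolve is limited to an unknown degree, and groups of 2 or 3 libraries gave wide intervals. Without a filter Cxcr2 had a log2 fold change of 0.18 in CD knockout against wild type (limma BH adjusted p = 0.668). Retnlg fell below the filter without CD knockout library 2 or 3.

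Counts of genes called moved most. In CD knockout against wild type limma called 17 (9 higher, 8 lower), 3 without a filter, between 4 and 174 with 1 library left out, and 7 higher with 12 lower under median-of-ratios scaling. In VOFD knockout against CD knockout it called 7, 4 with a pseudocount of 0.1 TPM, 4 with only the 2 groups fitted, and between 3 and 104 with 1 library left out. In VOFD knockout against wild type it called 2, 7 with a pseudocount of 0.1 TPM, 5 without a filter, 5 without a trend, 29 with only the 2 groups fitted, and between 2 and 14 with 1 library left out. In infertile against fertile it called 38, 4 without a filter, 64 under median-of-ratios scaling, 59 under quantile normalisation, and between 15 and 665 with 1 library left out. Of the 9 tested genes, between 0 and 2, 0 and 2, 0 and 0, and 0 and 3 were called in the 4 comparisons with 1 library left out, and 0 under every other alternative.

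Correlations of deviations between same-numbered libraries lay between -0.186 and 0.0458, and the main fit used no pairing. In the groups of 2 libraries the deviations mirror each other, so these values cannot decide whether the replicate numbers pair the libraries. With the replicate block limma called 27 genes in CD knockout against wild type, 12 in VOFD knockout against wild type and 15 in infertile against fertile. With the numbers crossed, an alternative added after seeing the data, it called 11 in VOFD knockout against wild type.

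Signs of log2 fold changes turned for Cma1 in CD knockout against wild type, at -0.016 under quantile normalisation and between -0.28 and 0.62 with 1 library left out (below 0 without CD knockout library 2). The others turned in VOFD knockout against wild type. S100a9 was at -0.017 with a pseudocount of 0.1 TPM, -0.079 under median-of-ratios scaling and -0.12 under quantile normalisation. With 1 library left out, S100a9 lay between -0.61 and 0.62 (below 0 without wild type library 2, -0.35, or VOFD knockout library 2), S100a8 between -0.30 and 0.62, Retnlg between -0.51 and 0.12, Csf3r between -0.020 and 0.29, Mcpt4 between -0.53 and 0.20 and Fcer1a between -0.33 and 0.15. Wild type library 1 turned S100a8 (-0.22), Retnlg and Fcer1a, and VOFD knockout library 2 turned S100a8, Csf3r and Mcpt4. Where leaving out a library left 1 in its group, that library was assumed to vary like the other groups. The cause was not tested. All other alternatives left the sign of each of the 9 genes as it was.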
